A study of Mus musculus with 4 samples.

Results

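The enzymes that oxidise, reduce and hydrolyse drugs, and those that attach glucuronic acid to them, were examined in the spleens of females without Nrf2, a transcription factor. Members were all probe sets whose single platform gene symbol began with Cyp, Aldh, Ces, Fmo, Aox, Ephx, Cbr, Akr or Ugt followed by a number, and there were 90 of them, for 73 genes, among 12422 non-control probe sets. The compared groups were 2 arrays of spleen from Nrf2 knockout mice (nrf2 -/-, here KO) and 2 arrays of spleen from wild-type littermates (nrf2 +/+, here WT), all female and 5 months old, with no treatment named. Both genotypes came from one intercross of heterozygotes, whose wild-type parents were C57B6/SJL and whose knockout parents were C57B6/129SVJ, so strain background was mixed in every animal. The labels place this age before severe autoimmune disease, name no construct for the deleted allele, and do not say whether an array holds 1 mouse or a pool, so the p-values cover the spread between these arrays alone, part of which may be technical.

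Phase I enzymes put a reactive group on a foreign or body-made molecule, and conjugating enzymes such as the glucuronosyltransferases then attach a polar group that lets it be excreted. Cytochromes P450, flavin monooxygenases and aldehyde oxidase oxidise; aldehyde dehydrogenases, aldo-keto reductases and carbonyl reductases clear aldehydes and ketones; carboxylesterases and epoxide hydrolases split esters and epoxides. Liver holds the largest amounts of most of them, while immune tissue uses several for retinoid, steroid, cholesterol and fatty acid metabolism. Nrf2 is known to bind antioxidant response elements near some of these genes and to raise their transcription under electrophile stress.

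The values are intensities on the deposited linear scale, and the number of arrays limits their precision. Nfe2l2, which encodes Nrf2, measured 202 and 179 in KO spleens and 3537 and 6321 in WT spleens (log2 difference -4.61, SE 0.47, limma adjusted p = 0.0199), and its adjusted p was 0.143 without the WT 1 array and 0.0583 without the WT 2 array. Of the lymphocyte markers of spleen, 9 of 9 B cell and 7 of 9 T cell probe sets lay above the median of every array. Hepatocyte markers were dim, with 1 of 16 probe sets above every array's median. The WT 1 array was unlike the others, with 3.61% of tested probe sets more than 2-fold above all other arrays and 11.8% more than 2-fold below them. The 3' to 5' ratio for the Gapdh control was 25.5 and 34.8 in the KO 1 and KO 2 arrays, 88.3 in the WT 1 array and 8.07 in the WT 2 array. That for actin was 19.3 and 16.1 in the KO 1 and KO 2 arrays, 14.4 in the WT 1 array and 8.86 in the WT 2 array. Each ratio was far above 1, so these controls gave much more signal at the 3' end on every array. The effect of this on dim or discordant probe sets was not tested. Leaving out the WT 1 array turned the sign of the difference for 17 of 38 tested members, and values without it stand beside the members in which it lay farthest from the others.

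The first question was which families gave a signal in spleen. Since the table has no detection calls, a probe set was counted as present when it lay above the median of all non-control probe sets on all 4 arrays, and as dim throughout when it lay below an intensity of 185, the pooled 25th percentile, on all 4. Of the 90 members, 21 were present (23.3%), against 42.3% of all non-control probe sets, and 21 were dim throughout (23.3%), against 14.8%. Above the 75th percentile of every array lay 8 members (8.89%), against 18.4% of all probe sets. Levels of different probe sets are not comparable, so no gene is ranked above another.

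**Figure D1:**
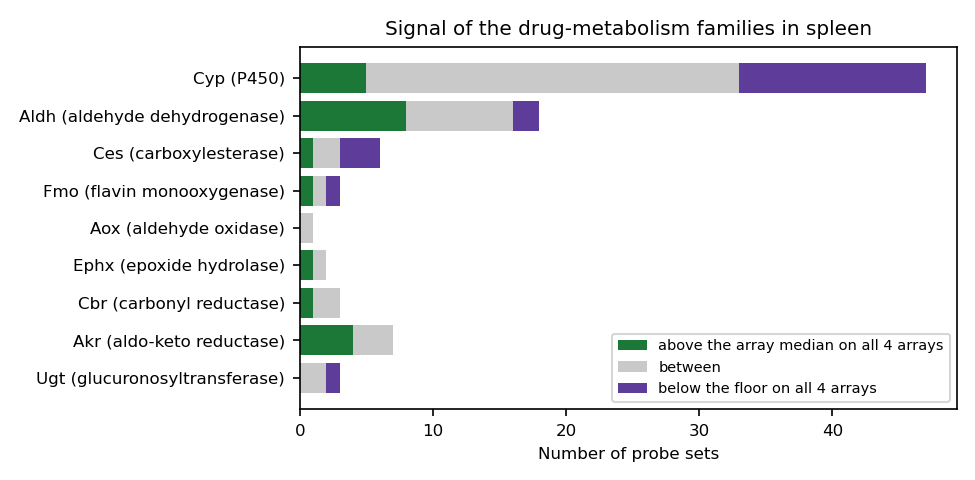
Number of member probe sets in each family (rows) that lay above the array median on all 4 arrays (green), below the floor intensity on all 4 (purple) or between (grey). The aldehyde dehydrogenases and aldo-keto reductases have 8 of 18 and 4 of 7 in green, the P450s 5 of 47, and the single-symbol glucuronosyltransferases and aldehyde oxidase none.

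Of the 21 probe sets present, 13 belonged to the enzymes of aldehydes and ketones (Aldh, Akr and Cbr). These were 13 of the 28 probe sets of that group (46.4%), near the 42.3% of all non-control probe sets. Aldehyde dehydrogenases were present with 8 of 18 probe sets, for 5 of 10 genes, and aldo-keto reductases with 4 of 7. Among cytochromes P450, 5 of 47 probe sets were present, and 14 were dim throughout. The drug- and fatty-acid-metabolising P450 families 1 to 4 gave 4 of 34, and the sterol, bile acid, steroid and vitamin families numbered 7 and above gave 1 of 13. Epoxide hydrolases gave 1 of 2, carbonyl reductases 1 of 3, flavin monooxygenases 1 of 3 and carboxylesterases 1 of 6. Of the glucuronosyltransferases with a single symbol, 0 of 3 were present, and the single aldehyde oxidase probe set (Aox1) was not present either. A Ugt1 probe set with several symbols, given below, did reach the level counted as present.

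The 5 P450 genes present were Cyp1b1, which oxidises oestrogens and polycyclic hydrocarbons outside the liver, Cyp2e1, which oxidises ethanol and solvents, the fatty acid hydroxylases Cyp4b1 and Cyp4v3, and Cyp21a1, the steroid hydroxylase of the adrenal cortex. The names of the Cyp21a1 and Cyp4b1 probe sets carry a suffix for sequence shared with other transcripts, as do 17 member probe sets in all. The signals of both may therefore include a related transcript. The same holds for the probe sets of Cyp2c38 and Ugt2b5, the tested one of Cyp7b1 and 1 each of Aldh3a2 and Aldh7a1. Cyp1b1 was present on 1 probe set, with 4561 and 4056 in KO spleens and 1495 and 4862 in WT spleens. On its other probe set it was at 9.7 and 6.7 in KO spleens and 11.8 and 6.6 in WT spleens, so 1 probe set counted as present and the other as dim throughout. Of 15 genes with several probe sets, Cyp1b1 was the 1 with a probe set present and another dim throughout.

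The dim P450s included enzymes of liver drug, bile acid and retinoid metabolism. Cyp2d10 read between 15.8 and 48 over its 2 probe sets and 4 arrays, Cyp2j5 between 6.9 and 9.8, and Cyp3a25 between 6.5 and 74.6. The bile acid enzyme Cyp7a1 measured 75.5 and 144 in KO spleens and 53.8 and 55.9 in WT spleens, all below the floor. Cyp26a1, which breaks down retinoic acid, was also below the floor on every array.

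The probe set for the Ugt1 cluster was left out of the members because it is assigned to 8 Ugt1a genes, which share their last exons. It measured 6318 and 6044 in KO spleens and 3497 and 5467 in WT spleens, with both KO values above both WT values. These values lay above the 75th percentile of every array, but the signal cannot be given to 1 gene. It is 1 of 8 probe sets of these families with several symbols. A probe set for the xenobiotic P450s Cyp2a5 and Cyp2a4 measured 197 and 98.2 in KO spleens and 282 and 332 in WT spleens. Both of its KO values lay below both WT values.

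**Figure D2:**
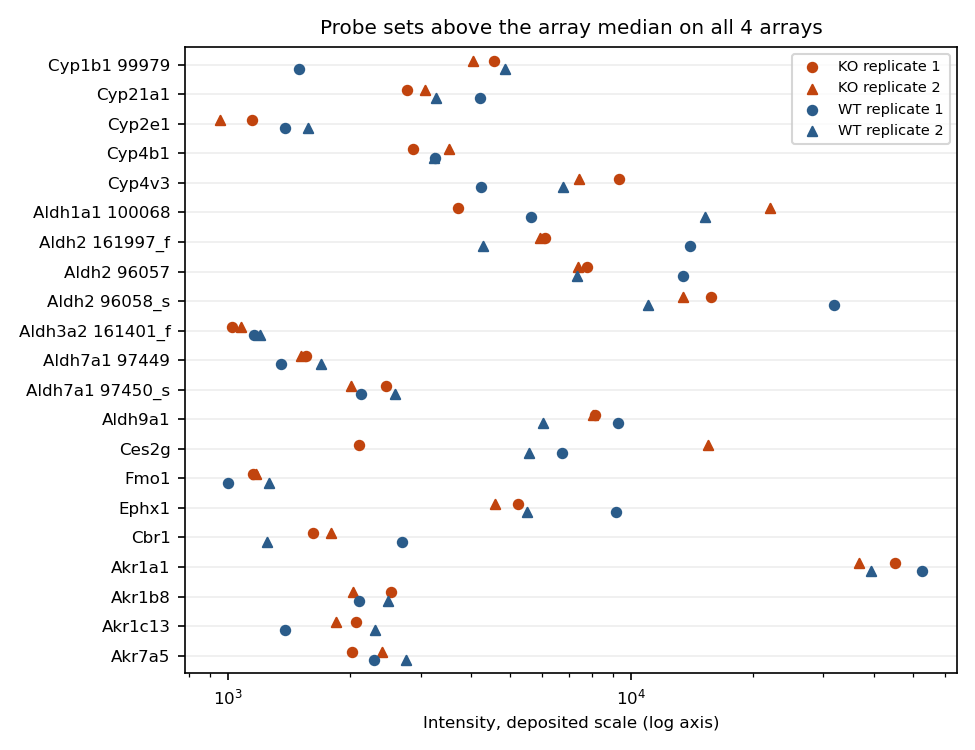
Intensity (horizontal, log axis) of the 21 member probe sets above the array median on all 4 arrays, ordered by family, with knockout arrays in red above wild-type arrays in blue and replicates 1 and 2 as circles and triangles. In most rows the genotypes interleave. The WT 1 array is the highest or lowest value in many rows, among them those of Aldh2, Cyp1b1, Ephx1, Cyp21a1 and Cyp4v3.

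The next question was how knockout compared with wild type. Among 90 members, 38 probe sets for 33 genes were bright enough to test, with a mean above the 40th percentile, and 52 were not. In KO spleens 15 of the 38 measured higher and 23 lower, with a median log2 difference of -0.09, against 0.04 over all 7453 tested probe sets. No member passed an adjusted p of 0.05 in limma, where 0.0537% of all tested probe sets did (4 of 7453, or 10 and 13 without the KO 1 or the KO 2 array). At an unadjusted p under 0.05 the count was 0 of 38, against 1.74% of all (130), and the smallest member p was 0.163 (Cyp4a12b, limma adjusted p = 0.992). That count was 1 without the WT 1 array, where 3.06% of all had such a p, and 9 without the WT 2 array, where 29.4% had. A difference of 1 or more on the log2 scale was reached by 0 of 38, against 5.46% of all. In bulk tissue, fewer cells of a type and less RNA per cell cannot be told apart.

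These counts do not show that the genotypes are alike, and with 1 array left out at a time the sign of the difference turned for 15 of the 17 tested probe sets named by rule. The 95% confidence interval of a member's difference reached from 0.89 to 1.94 on the log2 scale to either side, with a median of 1.09. The interval lay inside a 2-fold change either way for 4 of 38 probe sets, and inside a 4-fold change for 30 of 38. Those inside a 2-fold change were the intervals of Cyp4b1 (-0.92 to 0.86), Akr1b8 (-0.92 to 0.89) and Aldh7a1 (-0.98 to 0.83 and -0.89 to 0.94 on its 2 tested probe sets).

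**Figure D3:**
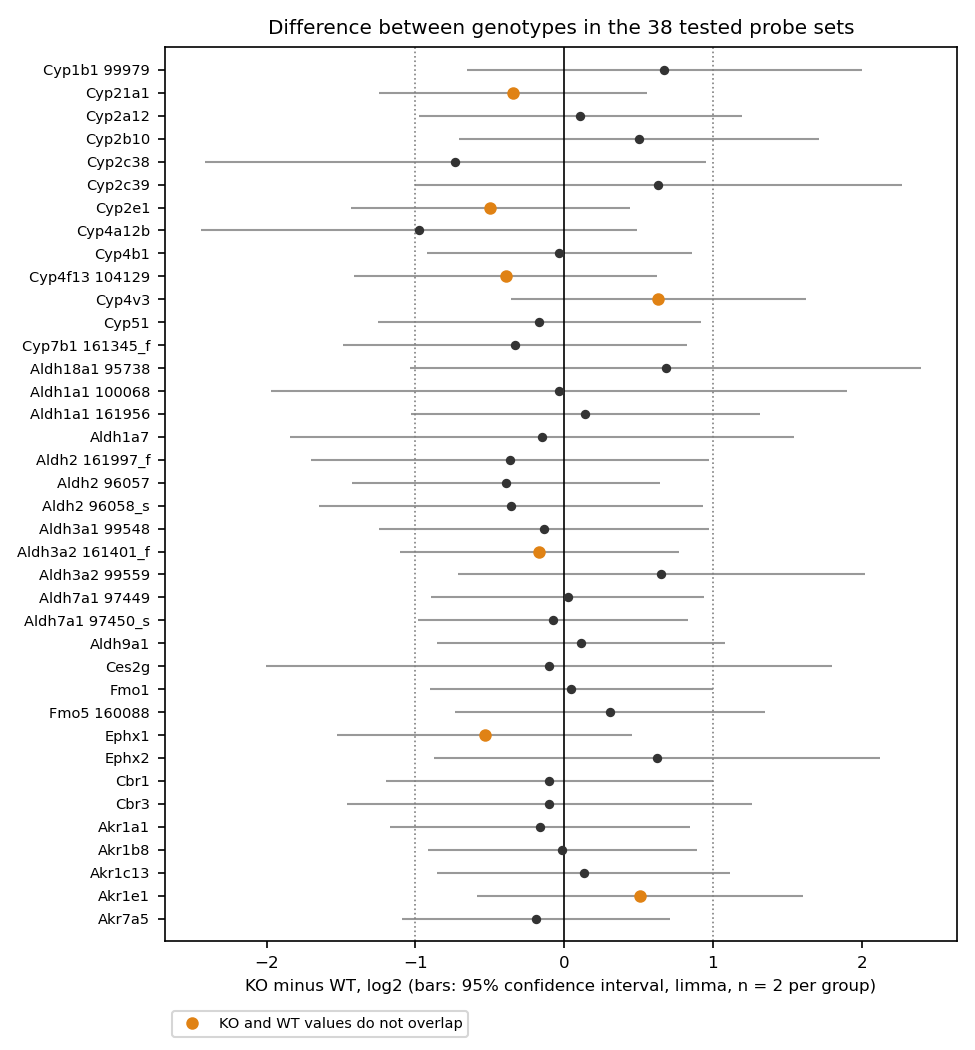
Difference between knockout and wild type (log2, horizontal) with its 95% confidence interval for each of the 38 tested member probe sets, ordered by family, with orange points where the 2 knockout and 2 wild-type values do not overlap and dotted lines at a 2-fold change. All 38 intervals include 0, and the differences run from -0.98 to 0.68.

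Members already linked to Nrf2 in rodents were described as a list of 22 genes. A single-symbol probe set existed for 11, and 12 probe sets for 10 genes were tested. Of these 12, 4 measured higher and 8 lower in KO spleens, with differences from -0.54 to 0.67, a median of -0.06 and 0 with an unadjusted p under 0.05 in limma. The listed gene left over, Ugt2b5, was too dim to test and is given below. Cyp2a5, Ugt1a1, Ugt1a2 and Ugt1a6a were listed too, but only on the probe sets with several symbols given above.

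Ephx1, the microsomal epoxide hydrolase, measured 5227 and 4601 in KO spleens and 9153 and 5521 in WT spleens. Both knockout values lay below both wild-type values (log2 difference -0.54, SE 0.43, 95% interval -1.53 to 0.45, limma adjusted p = 0.992). The nearest values, 5227 in KO spleens and 5521 in WT spleens, were close together, and the highest was that of the WT 1 array, without which the difference was -0.17.

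Among the carbonyl reductases, Cbr1, which reduces prostaglandins and anthracyclines, measured 1624 and 1801 in KO spleens and 2693 and 1249 in WT spleens (log2 -0.10, SE 0.47, limma adjusted p = 0.997). Its paralogue Cbr3 measured 1332 and 457 in KO spleens and 937 and 745 in WT spleens, where both wild-type values fell between the knockout ones. Cbr2, the carbonyl reductase of mouse lung, was too dim to test.

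Akr1a1, the aldehyde reductase of vitamin C synthesis in mice, measured 45123 and 36805 in KO spleens and 52649 and 39453 in WT spleens (log2 -0.16, SE 0.44). Akr1b8, an aldose reductase-like enzyme, measured 2535 and 2043 in KO spleens and 2111 and 2497 in WT spleens (log2 -0.01, SE 0.39). Akr1c13, of the hydroxysteroid dehydrogenase branch, measured 2079 and 1851 in KO spleens and 1386 and 2313 in WT spleens (log2 0.13, SE 0.43). In these 3, all linked to Nrf2, the genotypes overlapped. Outside that list, the aflatoxin aldehyde reductase Akr7a5 also overlapped, with 2028 and 2404 in KO spleens and 2302 and 2754 in WT spleens. Akr1e1, an anhydrofructose reductase, did not: it measured 710 and 869 in KO spleens and 483 and 632 in WT spleens (log2 0.51, SE 0.47, limma adjusted p = 0.992).

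Aldh2, the mitochondrial enzyme that clears acetaldehyde, was above the 75th percentile of every array on all 3 of its probe sets, and the 3 gave nearly the same difference. On 1 of them, whose name carries the suffix for shared sequence, it measured 15778 and 13464 in KO spleens and 31780 and 10999 in WT spleens. On another it measured 7786 and 7395 in KO spleens and 13452 and 7343 in WT spleens. On the last, also with that suffix, it measured 6094 and 5949 in KO spleens and 14015 and 4275 in WT spleens. On each, the WT 1 array was the highest array and the WT 2 array the lowest, so both knockout arrays lay between. The log2 differences were -0.36, -0.39 and -0.36, and without the WT 1 array they turned to 0.41, 0.05 and 0.49.

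Aldh1a1, which makes retinoic acid from retinaldehyde, varied more within a genotype than between genotypes. Its present probe set measured 3710 and 22057 in KO spleens and 5635 and 15260 in WT spleens (log2 -0.04, SE 0.84, 95% interval -1.97 to 1.90). Replicate 1 was low and replicate 2 high in both genotypes, a 5.95-fold spread in KO spleens and a 2.71-fold spread in WT spleens. Its other probe set did not follow, with 938 and 520 in KO spleens and 685 and 584 in WT spleens.

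The remaining aldehyde dehydrogenases overlapped on most probe sets. Aldh9a1, which oxidises aminobutyraldehyde, measured 8108 and 8031 in KO spleens and 9247 and 6022 in WT spleens. The name of its only probe set carries the suffix for shared sequence. Aldh7a1, of lysine breakdown, measured 1554 and 1518 in KO spleens and 1348 and 1696 in WT spleens, and on its other present probe set 2466 and 2014 in KO spleens and 2131 and 2585 in WT spleens. Aldh3a1, the corneal enzyme often used as an Nrf2 readout, measured 860 and 540 in KO spleens and 715 and 785 in WT spleens on its tested probe set (log2 -0.14, SE 0.48), and it was below the floor on the other. The fatty aldehyde dehydrogenase Aldh3a2 gave differences of opposite sign on its 2 probe sets, -0.17 (SE 0.41) and 0.65 (SE 0.59). On the second it measured 2255 and 1552 in KO spleens, 663 in the WT 1 array and 2137 in the WT 2 array, and its difference turned to -0.19 without the WT 1 array. Aldh18a1, of proline synthesis, was also low in that array on 1 probe set, with 491 and 767 in KO spleens, 24.1 in the WT 1 array and 788 in the WT 2 array. Its log2 difference of 0.68 (SE 0.74), the highest among tested members, turned to -0.36 without the WT 1 array.

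Among the P450s, Cyp4v3, whose human counterpart hydroxylates fatty acids, measured 9297 and 7407 in KO spleens and 4247 and 6756 in WT spleens, with both knockout values above both wild-type ones (log2 0.63, SE 0.43, 95% interval -0.36 to 1.62, limma adjusted p = 0.992), and its difference was 0.30 without the WT 1 array. For Cyp1b1, given above, the WT 1 array was far below the other 3 arrays, and the log2 difference of 0.67 (SE 0.57) turned to -0.18 without that array. Cyp2e1 measured 1146 and 954 in KO spleens and 1385 and 1573 in WT spleens, with no overlap (log2 -0.50, SE 0.41). Cyp21a1 measured 2784 and 3074 in KO spleens and 4205 and 3281 in WT spleens, also without overlap (log2 -0.34, SE 0.39). Cyp4b1 measured 2871 and 3526 in KO spleens and 3261 and 3244 in WT spleens, a log2 difference of -0.03 (SE 0.39).

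Other P450s were bright enough to test but below the level counted as present. Cyp2b10, the phenobarbital-inducible P450, measured 1246 and 905 in KO spleens and 1110 and 508 in WT spleens (log2 0.50, SE 0.52). Without the WT 1 array its difference was 1.06, with an unadjusted p of 0.0492 and an adjusted p that rounds to 1 in limma. The sterol demethylase Cyp51, of cholesterol synthesis, measured 722 and 731 in KO spleens and 1024 and 650.1 in WT spleens. The oxysterol hydroxylase Cyp7b1 measured 616 and 506 in KO spleens and 893 and 555 in WT spleens on its tested probe set. Both overlapped between genotypes.

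Counted over all tested members, knockout and wild-type values did not overlap for 7 of 38 (18.4%), against 26.4% of all tested probe sets. Higher in KO spleens were 2, Akr1e1 and Cyp4v3, where 14.3% of all tested probe sets were. Lower were 5, Ephx1, Cyp2e1, Cyp21a1, Cyp4f13 and 1 Aldh3a2 probe set, where 12.2% were. The share of members that separated the genotypes was therefore not above that of all probe sets.

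For the tested hydrolases and monooxygenases, the interval of the difference included 0 in each case. Ephx2, the soluble hydrolase that opens fatty acid epoxides, measured 567 and 736 in KO spleens, 237 in the WT 1 array and 740 in the WT 2 array (log2 0.62, SE 0.65), and the difference was -0.20 without the WT 1 array. Fmo1, a flavin monooxygenase of nitrogen- and sulphur-containing compounds, measured 1148 and 1172 in KO spleens and 996 and 1262 in WT spleens (log2 0.05, SE 0.41). Fmo5 measured 1137 and 799 in KO spleens and 841 and 704 in WT spleens on its tested probe set, and both overlapped between genotypes.

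Several members set the knockout arrays apart from each other. The carboxylesterase Ces2g measured 2108 and 15510 in KO spleens and 6742 and 5579 in WT spleens, so that one knockout array was the lowest and the other the highest (log2 -0.10, SE 0.82). Aldh1a7, a close paralogue of Aldh1a1, measured 314 and 1540 in KO spleens and 843 and 705 in WT spleens. The arachidonate-metabolising P450 Cyp2c38 measured 131 and 728 in KO spleens and 775 and 480 in WT spleens, and the fatty acid hydroxylase Cyp4a12b had 284 and 802 in KO spleens and 1286 and 685 in WT spleens. These 4 probe sets, of 38, lay more than 2-fold below the 3 other arrays in the KO 1 array (10.5%), against 1.54% of all tested probe sets. The knockout arrays differed over 2-fold for 7 of 38 members (18.4%) and for 7.34% of all tested probe sets. For the wild-type arrays these numbers were 10 of 38 (26.3%) and 28.6%.

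Most erythroid markers were also lower in the KO 1 array than in the KO 2 array, 11 of the 13 probe sets of that list and 9 of them by over 2-fold. The exceptions were 1 probe set each of Tfrc and Urod, with 6790 in KO 1 and 5618 in KO 2 for Tfrc and 788 in KO 1 and 134 in KO 2 for Urod. Summed over the list, intensity came to 31189 and 123666 in the KO 1 and KO 2 arrays and to 124222 and 109650 in the WT 1 and WT 2 arrays. The red cell anion exchanger Slc4a1 measured 5106 and 30688 in KO spleens and 42541 and 26274 in WT spleens. The erythroid transcription factor Klf1 measured 3284 and 24927 in KO spleens and 21688 and 15486 in WT spleens. The lowest value in the list was 42.4, so none was at 0. The part of red cell precursors in the values of Ces2g, Aldh1a1, Aldh1a7, Cyp2c38 and Cyp4a12b was not tested.

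**Figure D4:**
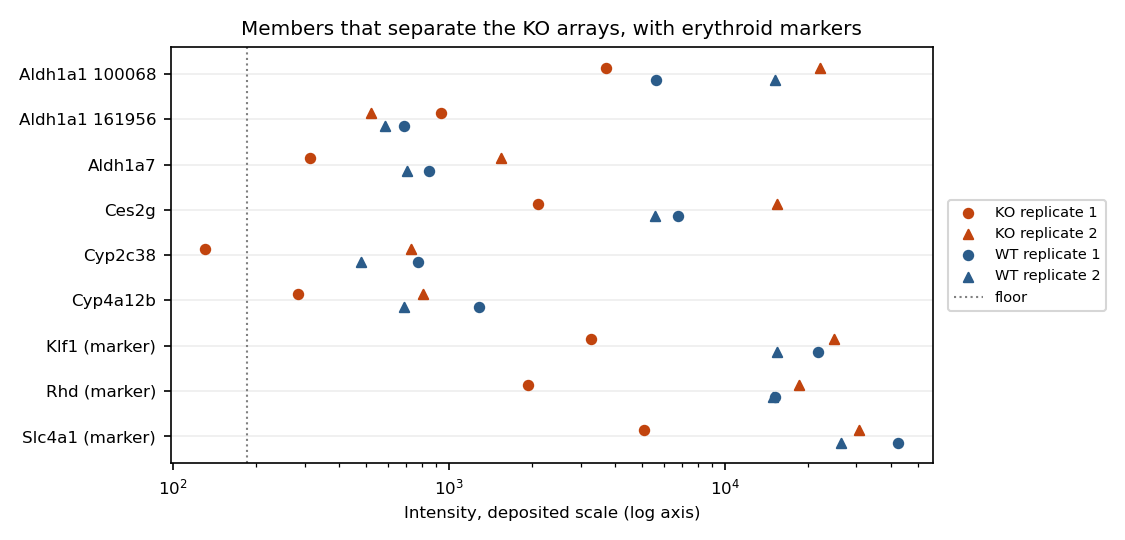
Intensity (horizontal, log axis) of the 4 member genes that were more than 2-fold lower in the KO 1 array than in the other arrays, of both Aldh1a1 probe sets and of 3 erythroid markers, with knockout in red and wild type in blue. The KO 1 array (red circle) is the lowest array in every row but that of the dimmer Aldh1a1 probe set. The markers shown, Klf1, Rhd and Slc4a1, were picked from the erythroid list, in which KO 1 was lowest for 9 of 13 probe sets.

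The 52 members too dim to test were read as values. Order below the floor carries no information, so values under it were set to it. The genotypes then did not overlap for 7 of the 52 (13.5%), against 13.7% of all probe sets too dim to test, with 5 members higher and 2 lower in KO spleens. No such member has a test in the fit of tested probe sets.

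The 2 lower ones were Akr1c6 and Ugt2b5. Akr1c6, a hydroxysteroid dehydrogenase of liver, measured 159 and 257 in KO spleens and 447 and 628 in WT spleens. Fitted without the filter on dim probe sets, its log2 difference was -1.28, with an unadjusted p of 0.026 and an adjusted p that rounds to 1 in limma. Ugt2b5, a glucuronosyltransferase of steroids and phenols, measured 63.2 and 39.1 in KO spleens and 397 and 230.0 in WT spleens. It was on the list of Nrf2-linked genes, where it was too dim to test. In 2 further liver P450s only the WT 2 array was above the floor. Cyp3a11, the main drug-oxidising Cyp3a enzyme of mouse liver, measured 36 and 43.9 in KO spleens and 112 and 459 in WT spleens. Cyp2c70, which makes muricholic bile acids in mice, measured 79.8 and 47.5 in KO spleens and 169 and 220.4 in WT spleens. For both, the WT 1 value tied with the KO values at the floor, so neither counts as lower. Other P450s were above the floor in a single array too: Cyp2b19 in the WT 1 array (234), Cyp2b13 in the KO 1 array (261) and Cyp1a2 in the KO 2 array (384).

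Markers of cell types were read from separate lists, chosen with earlier results of these data known. Over all lists, 18 of 74 tested probe sets had an unadjusted p under 0.05 in limma, against 1.74% of all. None of the 74 had an adjusted p under 0.05. Of the 16 hepatocyte probe sets, on the same floored values, 5 had both knockout values below both wild-type ones (31.3%), against 9.68% of all non-control probe sets, and 1 had the reverse. The list's summed intensity was 23132 and 14863 in KO spleens and 36217 and 31330 in WT spleens, most of it from 1 Serpina1b probe set. Alb, serum albumin, measured 488 and 360 in KO spleens, 840 in the WT 1 array and 4894 in the WT 2 array. The lowest value in the list was 13.3, and 2 of its probe sets, of Fgb and Tdo2, were below the floor on every array. Exocrine pancreas markers were lower in KO spleens for 7 of 8 tested probe sets, 6 of them with an unadjusted p under 0.05 and 0 with an adjusted p under 0.05 in limma. Their summed intensity was 12979 and 17062 in KO spleens, 87822 in the WT 1 array and 25507 in the WT 2 array. Neutrophil markers were higher in KO spleens for 13 of 13 tested probe sets, 5 with an unadjusted p under 0.05 and 0 with an adjusted one, while their sum was 505593 and 569710 in KO spleens, 709843 in the WT 1 array and 174001 in the WT 2 array. Platelet markers were higher for 3 of 3, and B cell and T cell markers lower for 8 of 9 and 6 of 7. Macrophage markers were higher for 8 and lower for 4 of 12, and stroma and adipocyte markers higher for 6 of 7 and 2 of 2. In these last 3 lists, 0 had an unadjusted p under 0.05 in limma. The part of RNA from these cells in the values of the members was not tested.

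**Figure D5:**
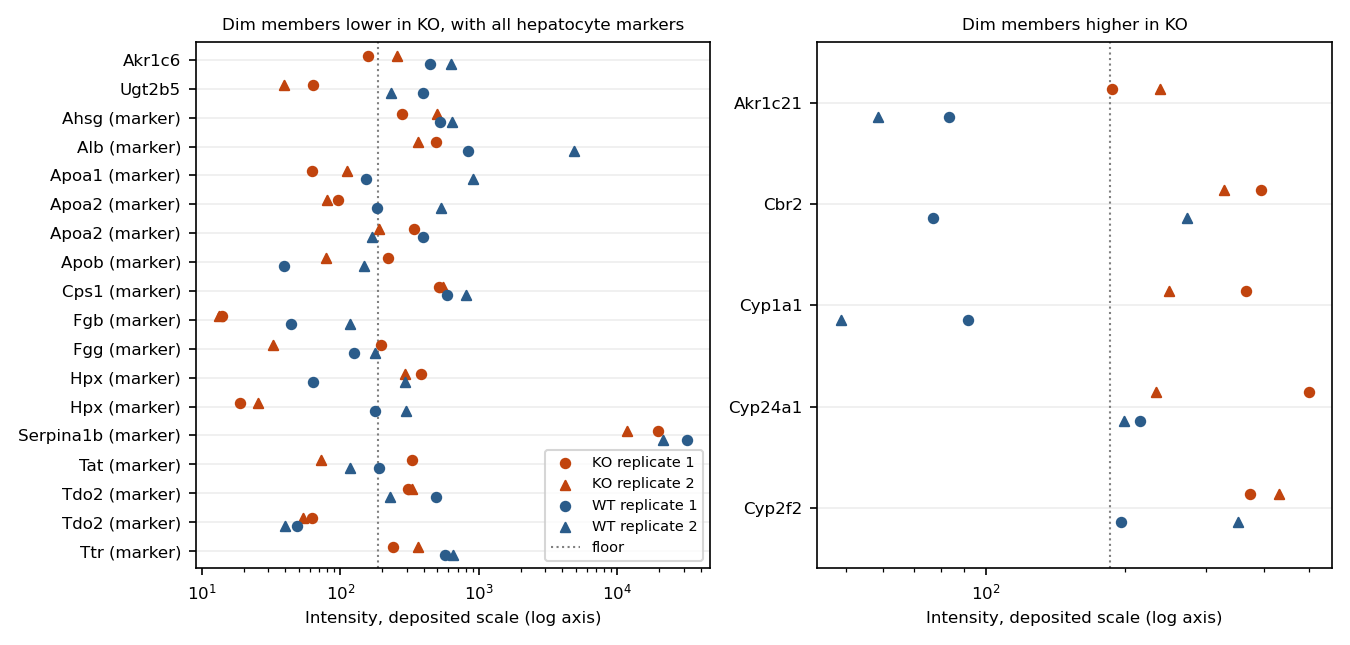
Intensity (horizontal, log axis) of the dim members whose genotypes did not overlap once values below the floor (dotted line) were set to it, with knockout in red and wild type in blue. The left panel shows the 2 lower in KO spleens with all 16 hepatocyte marker probe sets, of which 5 were also lower, and the right panel the 5 higher in KO spleens.

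The 5 higher ones were Cyp1a1, Cyp2f2, Cbr2, Akr1c21 and 1 probe set of Cyp24a1. Cyp1a1, the P450 induced through the aryl hydrocarbon receptor, measured 366 and 249 in KO spleens and 91.5 and 48.6 in WT spleens on 1 probe set, while on the other it was at 37 and 294 in KO spleens and 292 and 184 in WT spleens, with overlap between genotypes. Cyp2f2, an enzyme best known from lung, measured 372 and 431 in KO spleens and 196 and 351 in WT spleens, and Cbr2 had 394 and 327 in KO spleens and 76.8 and 273 in WT spleens. Akr1c21, a hydroxysteroid dehydrogenase, lay just above the floor with 188 and 239 in KO spleens, against 83.5 and 58.5 in WT spleens. The vitamin D hydroxylase Cyp24a1 measured 499 and 233 in KO spleens and 216 and 199 in WT spleens on that probe set, and was below the floor on all arrays on the other. Cyp1a2, the liver counterpart of Cyp1a1, was above the floor in 1 array, with 94.4 and 384 in KO spleens and 83.2 and 90.6 in WT spleens.

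Partners of these enzymes were read from a separate list of electron donors, receptors, glucuronide suppliers, other conjugating and oxidising enzymes and efflux pumps. Of 33 tested probe sets, 17 measured higher and 16 lower in KO spleens, with a median of 0.01, and 0 had an unadjusted p under 0.05 in limma, against the 1.74% of all tested probe sets given above. By group, higher and lower counts were 3 and 2 for electron donors, 5 and 5 for receptors and regulators, 3 and 1 for glucuronide supply, 1 and 2 for sulfation, acetylation and methylation, 4 and 4 for other oxidation, and 1 and 2 for efflux. The xenobiotic receptor Nr1i2 and the liver regulator Hnf4a were below the floor on all arrays. The aryl hydrocarbon receptor gene Ahr measured 1104 and 1457 in KO spleens and 703 and 1042 in WT spleens (log2 0.57, SE 0.45). Ugdh, which makes the glucuronic acid donor, measured 5007 and 5538 in KO spleens, 866 in the WT 1 array and 4819 in the WT 2 array (log2 1.37, SE 0.73, limma adjusted p = 0.992), and its difference was 0.13 without the WT 1 array.

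The position of the members relative to the deleted gene was also read, because the alleles came with different strain backgrounds. Of 73 member genes, 1, Cyp24a1, lay on the chromosome of Nfe2l2, and 0 lay within 20 Mb of it. A probe set of Cyp24a1 is among the dim members higher in KO spleens given above. Linkage beyond that window was not tested.

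Promoter sequence was searched for the core of the antioxidant response element, TGACNNNGC on either strand, in RefSeq windows of build GRCm38.p6 from 250 bases before to 50 after a gene's start. Windows existed for 57 of the 73 genes, and 4 held the core (7.02%), against 14.0% of all genes with windows. None of the 4 was on the list of Nrf2-linked members, and Aldh9a1 was the 1 of them bright enough to test. These 4 sites are shown because they are all the member windows that held the core, and only that of Aldh9a1 has a tested difference beside it. The 9 bases of the core are in capitals, as GCNNNGTCA where it lies on the opposite strand, with 16 bases to each side.
Aldh9a1, chr1:167349888-167349928, + strand: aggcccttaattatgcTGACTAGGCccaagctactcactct
Aldh1a2, chr9:71215661-71215701, + strand: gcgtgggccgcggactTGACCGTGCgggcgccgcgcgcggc
Cyp2j6, chr4:96553612-96553652, - strand: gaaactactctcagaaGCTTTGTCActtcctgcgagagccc
Cyp8b1, chr9:121916432-121916472, - strand: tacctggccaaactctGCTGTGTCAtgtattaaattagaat
Aldh9a1 had a log2 difference of 0.11 (SE 0.42, 95% interval -0.85 to 1.08), and the genotypes overlapped. Aldh1a2, a retinaldehyde dehydrogenase, and Cyp2j6 were below the floor on all arrays. Cyp8b1, of bile acid synthesis, measured 213 and 312 in KO spleens and 764 and 254 in WT spleens. A match is a description of letters, not a site of binding, and elements outside these windows were not searched.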

How the data were processed

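The authors deposited intensities of single-colour arrays, linear and 1 per probe set, with no detection calls. Neither software nor scaling is given in the sources used here. The 2% trimmed means of the 4 arrays were 2501.5 to 2502.0, within the 10% set for using values as deposited. The 66 control probe sets were left out. Intensities below 185, the pooled 25th percentile, were raised to that floor before log2, so differences of dim genes are understated. The 7453 probe sets with a mean above the 40th percentile were tested with limma 3.58.1 in R 4.3.3 (lmFit, eBayes with trend, two-sided, Benjamini-Hochberg over all). Lists give counts and medians. The procedure was tested on simulated data. Tables were made with pandas 2.3.3 and figures with matplotlib 3.10.9 in Python 3.11.15.

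Symbols came from the platform annotation, and all 90 members matched the GRCm38.p6 gene table. The rule for named members took those with an unadjusted p under 0.05, those without overlap and a log2 difference of 1 or more, those above the 75th percentile on all arrays, and a list of Nrf2-linked genes. Other members, and the partners given by name, were named after their values were seen. Members and lists were chosen with earlier results of these data known. The same replicate numbers occur in both genotypes, but the labels do not pair samples by them. The alternatives changed the array scaling, the floor, the filter on dim probe sets or the variance model, added a replicate block, or left out an array or the probe sets with a suffix in their name.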

Additional observations from a re-analysis of the deposited data

How the results depend on the processing

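No member passed an adjusted p of 0.05 in limma under any of the 14 alternative fits, and the smallest member adjusted p in any of them was 0.0695, for Cyp1b1 without the WT 2 array. The count of members with an unadjusted p under 0.05, 0 in the reported fit, was 1 with all probe sets fitted (Akr1c6), and from 0 to 9 with 1 array left out. It was 1 without the WT 1 array (Cyp2b10, with 3.06% of all probe sets) and 9 without the WT 2 array, where 29.4% of all tested probe sets had such a p. Left-out fits assume that the lone array varies like the other group. The count over all probe sets, 4, was 0 with all fitted (with 339 at an unadjusted p under 0.05), 2 without probe sets that have a suffix in their name, 36 with a replicate block, and from 3 to 13 with 1 array left out. Deviations of same-numbered arrays correlated at 0.04. This cannot decide whether arrays were paired, because the WT deviation includes the outlying WT 1 array. The replicate block left 0 members called. Nfe2l2 differed by -3.30 with a floor at the 40th percentile and by -4.61 without the filter, in both cases no longer passing, and by -5.03 to -4.19 with 1 array left out. Counting every probe set above the floor on all arrays, 41 of 90 members (45.6%) were present in place of 21, against 64.9% of all non-control probe sets.

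With 1 array left out, the differences of 15 of the 17 tested members named by rule changed sign, and the cause was not tested. They ranged from -0.37 to 0.047 for Akr1a1, from -0.17 to 0.14 for Akr1b8, from -0.24 to 0.50 for Akr1c13, from -1.32 to 1.25 and from -0.28 to 0.57 for the Aldh1a1 probe sets, from -1.22 to 0.49, from -0.83 to 0.047 and from -1.12 to 0.41 for those of Aldh2, from -0.47 to 0.20 for Aldh3a1, from -0.14 to 0.19 and from -0.22 to 0.071 for Aldh7a1, from -0.20 to 0.42 for Aldh9a1, from -0.65 to 0.45 for Cbr1, from -0.87 to 0.67 for Cbr3 and from -0.18 to 1.52 for Cyp1b1. Aldh7a1 also changed sign, to -0.036 with each array centred on its median and to -0.062 with quantile normalization. Ephx1 and Cyp4v3 kept their direction under all 14 alternative fits.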
